A study of Mus musculus with 12 samples.

Results

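The genes of the cytosolic ribosomal proteins were followed in sorted spinal cord microglia of Biozzi ABH mice, a strain that develops chronic-relapsing experimental autoimmune encephalomyelitis (crEAE). A gene was counted as a member if its symbol in GENCODE release M21 began with Rpl or Rps and a digit, or was Rpsa, Rplp0, Rplp1 or Rplp2. It also had to be protein-coding, to belong to no ribosomal S6 kinase (symbols starting Rps6k), and to hold at least 60 counts over all 12 libraries. Of 48526 gene IDs in the files, 92 met the symbol rule and 83 also passed the count minimum. The members comprised 46 canonical proteins of the large (60S) subunit and 31 of the small (40S) subunit, which is every gene of both canonical lists used here. The name of the set is less apt for 6 further members: the paralogs Rpl7l1, Rpl22l1, Rpl36al and Rps27l, the Rps12 copy Rps12-ps3, and Rps19bp1, which encodes a binding partner of the Rps19 protein. The member with the fewest counts was Rpl24 with 76, and the gene just under the minimum was Rpl9-ps6 with 29. The other genes left out held 10 counts or fewer and included Rpl3l and Rpl39l.

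Each of 4 groups held 3 libraries, 1 per mouse: control mice, and crEAE mice in the acute, remission and chronic phases. All were of the Biozzi ABH strain, and the labels give neither age nor sex, nor what the control mice received. The sort of spinal cord cells took those with CD11b and a middle level of CD45 but no Ly-6C, so a surface gate and not a lineage label defined the microglia. Total RNA was copied from random hexamers, tagmented with a kit that keeps no strand and read as single reads of 75 bases.

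The ribosome translates mRNA, its small subunit decoding the message and its large subunit joining amino acids, and each of its proteins is needed in about equal amounts. In mammals most of these proteins are encoded by a single active gene among many silent retrocopies. Their mRNAs belong to the 5′ TOP class, which begin with a cytosine and a run of pyrimidines and are held back from translation by LARP1 when the kinase mTOR is inactive. Activated immune cells and growing cells are known for raising their output of ribosomes.

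The start of the transcript is where that class is defined, so the 30 bases around the annotated start were read from the RefSeq promoter table on GRCm38.p6, in which 62 of the 83 members had an entry. Each line holds 12 bases before the start and 18 from it on. Capitals mark a run made of a C and at least 4 further letters that are each C or T, beginning within 5 bases of the start. Rps6, Rpl27a, Rpl35, Rps18 and Rplp2 are shown as members with a run and a higher level at the acute phase, and Rpl13a and Rpl22l1 as members with a run that were not called there. Rplp0 and Rpsa are shown as strongly raised members without such a run, and Rpl7l1 as the member called lower.
Rps6 (chr4:86857350-86857379, minus strand): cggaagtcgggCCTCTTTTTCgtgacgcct
Rpl27a (chr7:109519183-109519212, plus strand): ttcgtgagCTCCTCCCTTTTCCCTTTCTgc
Rpl35 (chr2:39005114-39005143, minus strand): ccccgccCTTTCCTCTTTCTCTCgaaccag
Rps18 (chr17:33955648-33955677, minus strand): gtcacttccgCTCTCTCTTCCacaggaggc
Rplp2 (chr7:141447639-141447668, plus strand): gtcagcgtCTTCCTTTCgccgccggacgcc
Rpl13a (chr7:45128728-45128757, minus strand): accctgcgacaagaCCTCCTCCTTTCCCag
Rpl22l1 (chr3:28805496-28805525, plus strand): cggcgcaagcccgttCTCTTCCCacggctg
Rplp0 (chr5:115559455-115559484, plus strand): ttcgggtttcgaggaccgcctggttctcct
Rpsa (chr9:120127754-120127783, plus strand): ggttatttaaggacgtcatttccggccgcc
Rpl7l1 (chr17:46782639-46782668, minus strand): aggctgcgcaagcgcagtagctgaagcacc

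Such a run stood at the start of 29 of the 62 members with an entry (46.8%), against 5718 of 27025 genes in the whole table (21.2%). Read on the opposite strand, the same search matched 10 members (16.1%) and 24.4% of all genes. The hexamer CGGAAG, the core bound by ETS-family factors such as GABP, was found on either strand in the 300 bases of 43 members (69.4%) and of 18.8% of all genes. Its reverse complement, CTTCCG, can overlap a pyrimidine run. A match is a description of the letters in this window and names neither a used start nor a bound factor. Among members higher at the acute phase 26 of 56 had a run (46.4%), and among those tested and not called higher 3 of 5 did.

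Library totals ranged from 3992885 to 5712376 counts, of which the 6 features with the most counts held 48.3 to 64.1% and the members 0.226 to 0.543%. Between 9732 and 23848 counts per library fell in the members. Levels are CPM after scaling with TMM factors, and log2 fold changes come from edgeR's quasi-likelihood test. Their standard errors (SE) were derived from that test, as the absolute log2 fold change divided by the square root of the F statistic. The p-values of the test were adjusted by the Benjamini-Hochberg method over all 12545 genes that passed the filter. A gene was called higher or lower at an adjusted p under 0.05. All members but Rpl24 passed the filter on low counts, which leaves 82 tested.

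Summed over the 83 members, the level was 1695, 1974 and 2100 CPM in the control libraries. It was 6035, 6354 and 6269 CPM in the acute libraries, 3823, 2992 and 3459 CPM in remission and 3878, 3362 and 4641 CPM in the chronic phase. Every acute library lay above every other library and every control library below every other, while the remission and chronic libraries overlapped. The control mean was 1923 ± 207 CPM (SD, n = 3). Against it, the acute mean of 6219 ± 165 was 3.23 times as high, the remission mean of 3425 ± 417 was 1.78 times as high and the chronic mean of 3960 ± 643 was 2.06 times as high. The 60S sum went from 1084 ± 80.0 to 3485 ± 94.6 CPM at the acute phase and the 40S sum from 802 ± 129 to 2694 ± 97.1 CPM. The ratio of the 60S to the 40S sum was 1.25 to 1.49 in control and 1.25 to 1.34 in acute libraries, and 1.23 to 1.295 in the later phases.

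**Figure D1:**
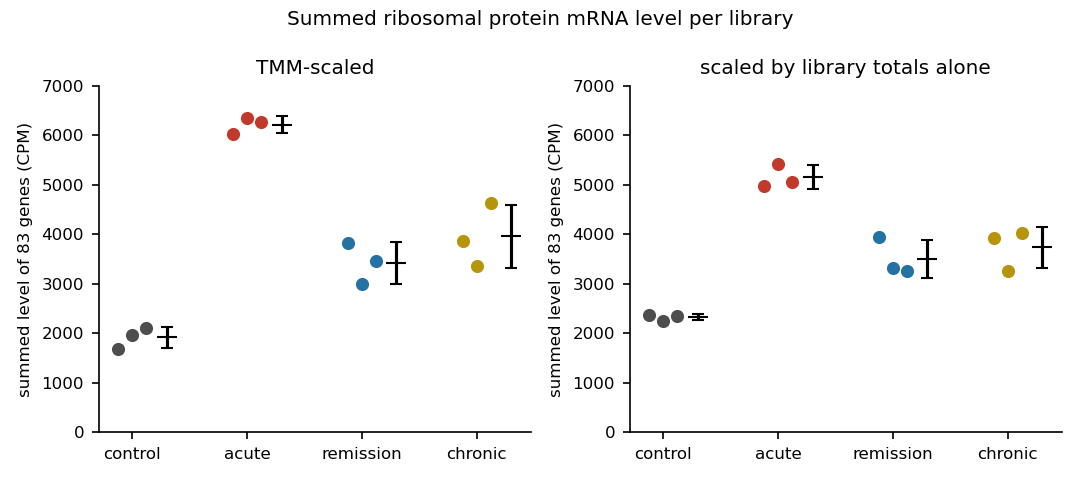
Summed level of the 83 ribosomal protein genes in each library (points, CPM) with the mean ± SD of each group of 3 (black), after TMM scaling on the left and with library totals alone on the right. In both panels the acute libraries are the highest and the control libraries the lowest, and the ratio of the acute to the control mean is 3.23 on the left and 2.22 on the right.

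The size of these ratios depended on the scaling. With library totals alone, without TMM factors, the summed level was 2.22 times the control mean at the acute phase, 1.51 times in remission and 1.61 times in the chronic phase. That scaling moved the median of all genes by -0.56 on the log2 scale in acute against control, by -0.25 in remission and by -0.36 in the chronic phase, and the share of calls that were higher in acute against control from 54.3 to 22.8%. The members' median log2 fold change at the acute phase was 1.63 against 0.02 over all genes with TMM. With library totals it was 1.09 against -0.53. A change of scaling shifts the log2 fold changes of all genes by nearly the same amount. The distance between members and all genes therefore cannot tell the scalings apart.

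At the acute phase 75 of the 82 members tested were higher than in control and 1 was lower, where 23.7% of all genes tested were higher and 20.0% lower. The median log2 fold change of the members was 1.63, or 3.10-fold, against 0.02 over all genes. All 3 acute libraries lay above all 3 control libraries in 77 of the 83 members, a pattern found in 30.0% of genes tested. Of the 76 canonical members tested, 71 had a log2 fold change over 1 and 21 over 2. The SD of the log2 fold changes among them was 0.58. The 5 canonical members below 1 were Rpl21, Rpl13a, Rpl30, Rpl26 and Rpl22.

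**Figure D2:**
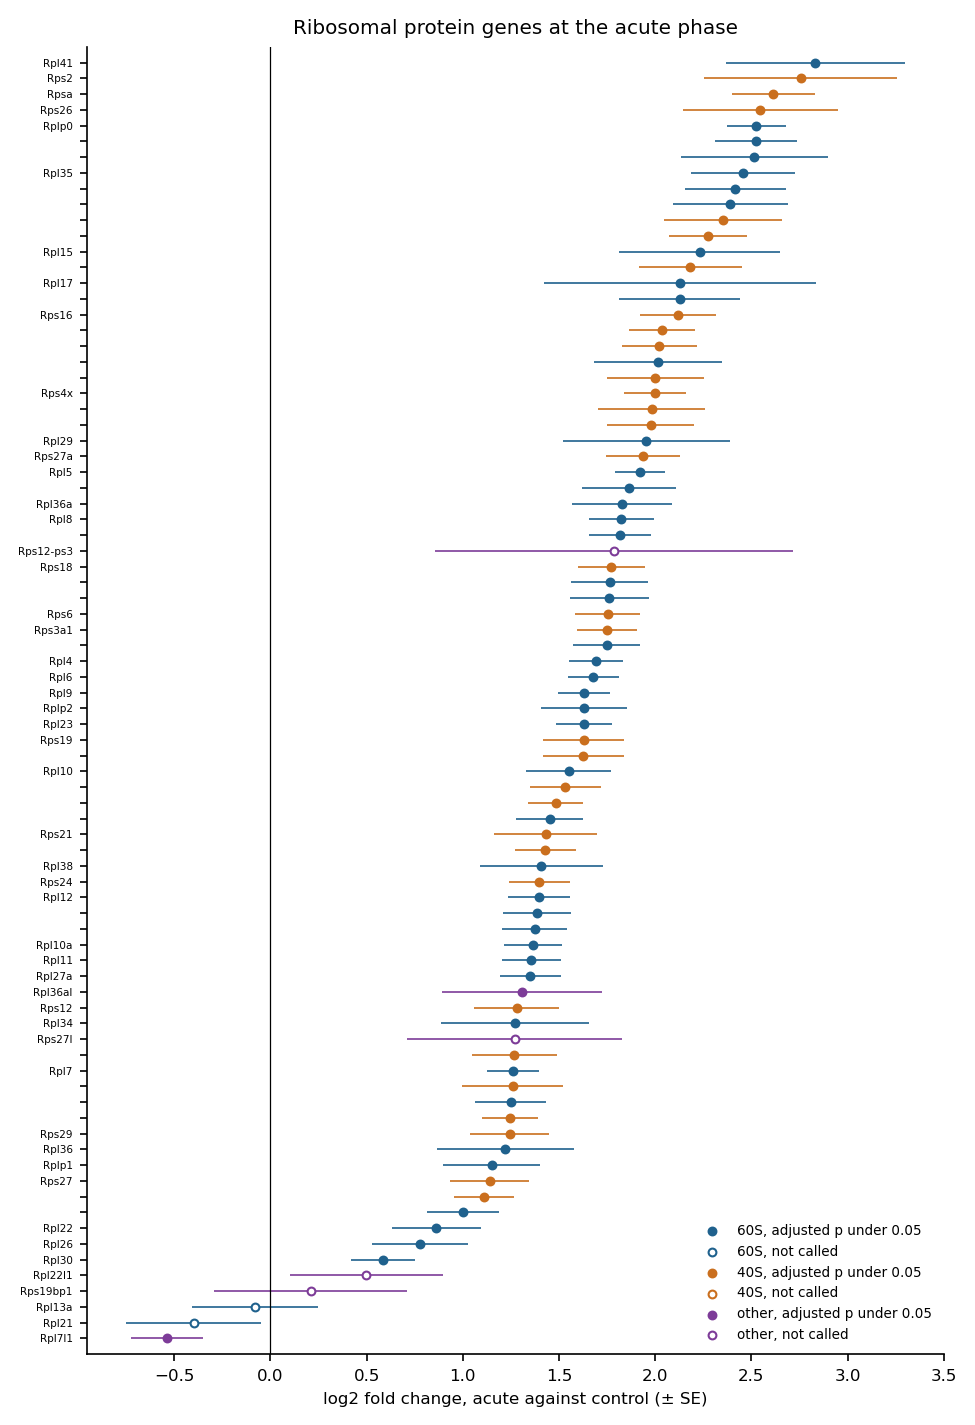
Log2 fold change of acute against control (x axis, ± SE) for the 82 members tested, ranked, with 60S proteins in blue, 40S proteins in orange and the others in purple, and open circles for members not called; genes described in the text are labelled. All 31 40S proteins and 43 of 45 60S proteins are filled and to the right of 0, and Rpl7l1 is the filled point to the left.

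Among 60S proteins, 43 of 45 were higher at the acute phase, with a median log2 fold change of 1.63. Rpl4, whose loop lines the peptide exit tunnel, stood at 89.5, 79.03 and 87.6 CPM in control and 275, 282 and 272 CPM in acute libraries (log2 fold change 1.69 ± 0.14 (SE), adjusted p = 6.7e-09). Rpl5 and Rpl11 bind the 5S ribosomal RNA, and when free of the ribosome they bind Mdm2. Rpl5 was measured at 60.7, 52.9 and 62.1 CPM in control and 221, 224 and 222 CPM in acute libraries, a change of 1.92 ± 0.13 (adjusted p = 3.66e-10). For Rpl11 the levels were 38.7, 45.4 and 50.5 CPM and 111.8, 108 and 123.6 CPM, a change of 1.36 ± 0.15 (adjusted p = 5.25e-07). In all 3 genes the acute libraries lay above the control libraries without overlap. Rpl6 rose by 1.68 ± 0.13 from 49.3 ± 3.77 CPM (adjusted p = 3.44e-09) and Rpl9 by 1.63 ± 0.13 from 49.00 ± 5.99 CPM (adjusted p = 7e-09). Rpl10, which joins the 60S subunit late in its maturation, stood at 32.4, 47.3 and 42.7 CPM and then 105, 130.01 and 123 CPM (log2 fold change 1.55 ± 0.22 (SE), adjusted p = 4.01e-05). Rpl41, a very short basic peptide, had the highest log2 fold change of the members tested, with 1.71, 4.21 and 4.100 CPM in control and 13.2, 30.4 and 26.1 CPM in acute libraries (log2 fold change 2.83 ± 0.47 (SE), adjusted p = 0.000305). Its acute libraries were spread more widely than those of Rpl5.

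The stalk of the large subunit, built from Rplp0 and dimers of Rplp1 and Rplp2, recruits the translation factors that hydrolyse GTP. Rplp0 (ENSMUSG00000067274, chr5:115559467-115563727 on the plus strand of GRCm38) stood at 69.4, 68.2 and 71.6 CPM in control and 429.6, 383 and 392.2 CPM in acute libraries. The difference was the one with the smallest adjusted p among the members (log2 fold change 2.53 ± 0.15 (SE), adjusted p = 1.02e-10). Rplp2 was at 7.397, 15.1 and 14.03 CPM in control and 31.9, 37.3 and 42.7 CPM in acute libraries (log2 fold change 1.63 ± 0.22 (SE), adjusted p = 5.93e-06). Rplp1 was at 13.9, 18.2 and 23.3 CPM and 36.6, 48.5 and 36.8 CPM (log2 fold change 1.15 ± 0.25 (SE), adjusted p = 0.00148). No library of the acute group overlapped the control group in any of the 3 genes, and the fold was 5.76 for Rplp0, 3.10 for Rplp2 and 2.22 for Rplp1. Rplp0 accounted for 3.67% of all member counts in control and 6.47% in acute libraries. Leaving it out, the summed level still stood at 3.14 times the control mean. Levels were also divided by exon length, joined over all annotated transcripts of a gene. On that measure Rplp0 had the highest level of all members at the acute phase, 242 CPM per kb of exon, against a median of 24.3. In control libraries the highest was Rps3a1 at 50.9 CPM per kb, against a median of 7.39. Of the 10 highest members per kb, 8 were common to all 4 groups.

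All 31 members of the 40S subunit were higher at the acute phase, with a median log2 fold change of 1.75. Rpsa, a 40S protein also known as the laminin receptor precursor, stood at 33.00, 43.6 and 45.96 CPM in control and 251, 274 and 223 CPM in acute libraries (log2 fold change 2.61 ± 0.21 (SE), adjusted p = 8.87e-08). Rps4x, which is encoded on the X chromosome, was at 39.97, 64.1 and 69.1 CPM and 229, 249 and 210.5 CPM (log2 fold change 1.999 ± 0.16 (SE), adjusted p = 4.85e-09). The lowest acute library lay far above the highest control library in both genes. Rps6, the substrate that gives the S6 kinases their name, was at 32.7, 25.2 and 30.9 CPM in control and 98.8, 106 and 95.1 CPM in acute libraries (log2 fold change 1.75 ± 0.17 (SE), adjusted p = 5.08e-08). Rps19, the gene most often mutated in Diamond-Blackfan anaemia, was at 15.9, 19.98 and 17.3 CPM and 51.9, 67.1 and 45.1 CPM (log2 fold change 1.63 ± 0.21 (SE), adjusted p = 3.75e-06). Rps27a, made as a fusion with ubiquitin, was at 9.103, 12.4 and 16.4 CPM and 49.3, 41.3 and 53.1 CPM (log2 fold change 1.94 ± 0.19 (SE), adjusted p = 8.55e-08). Groups did not overlap in any of these 5 genes. Rps2 and Rps26 had log2 fold changes of 2.76 ± 0.50 and 2.55 ± 0.40 at low control means of 1.36 ± 0.318 and 6.18 ± 3.11 CPM. Rps2 is uncertain, since its 8 annotated pseudogenes together held 127% of its own counts.

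Canonical members that were not called at the acute phase were Rpl13a and Rpl21. Rpl13a, known both as a reference gene and as a part of the interferon-induced GAIT complex, stood at 7.68, 6.83 and 5.39 CPM in control and 6.23, 4.26 and 8.596 CPM in acute libraries (log2 fold change -0.08 ± 0.33 (SE), adjusted p = 0.867). Rpl21 was at 9.53, 12.4 and 8.42 CPM and 8.301, 4.53 and 10.4 CPM (log2 fold change -0.400 ± 0.35 (SE), adjusted p = 0.379). Both groups overlapped in each gene. With library totals alone Rpl21 was called lower (-0.96, adjusted p = 0.0184), and Rpl13a was not (-0.65, adjusted p = 0.101). Rpl30, which rose by 0.59 ± 0.17 (adjusted p = 0.00738), was at 0.02 with library totals. Per kb of exon, Rpl21 (2.27 CPM per kb) and Rpl24 (2.31 CPM per kb) had the lowest acute levels of the canonical members. Rpl21 has 14 annotated pseudogenes, which held 12.8% as many counts as the gene, and Rpl24 has none of its name.

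Of the 6 members outside the canonical lists, 1 was higher and 1 lower at the acute phase. Rpl7l1, a nucleolar paralog of Rpl7 found on precursors of the 60S subunit, was at 25.03, 28.9 and 23.5 CPM in control and 21.5, 15.7 and 16.01 CPM in acute libraries (log2 fold change -0.54 ± 0.19 (SE), adjusted p = 0.0238). No acute library reached the control libraries, a pattern found in 26.7% of genes tested. This was the only member called lower with TMM scaling, while Rpl7 itself rose by 1.26 ± 0.14 (adjusted p = 2.66e-07). The call was lost without acute replicate 2, acute replicate 3 or control replicate 2 (adjusted p from 0.0797 to 0.0993), and the direction was negative under each scaling tried. In remission Rpl7l1 stood at 18.8, 20.9 and 15.9 CPM and in the chronic phase at 14.98, 18.7 and 19.6 CPM, again below every control library but not called (adjusted p = 0.118 and 0.0525). Rpl36al, a paralog of Rpl36a, was at 1.56, 2.28 and 1.51 CPM in control and 4.93, 3.996 and 4.45 CPM in acute libraries (log2 fold change 1.31 ± 0.42 (SE), adjusted p = 0.0153), a call lost without acute replicate 1, control replicate 1 or control replicate 3 (adjusted p from 0.0521 to 0.0614).

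The other 4 were not called. Rpl22l1, the paralog of Rpl22, was at 2.99, 3.505 and 3.88 CPM in control and 3.89, 4.26 and 6.52 CPM in acute libraries (log2 fold change 0.499 ± 0.40 (SE), adjusted p = 0.326). Rps27l, the paralog of Rps27 and a known p53 target, was at 1.42, 1.93 and 1.08 CPM and 3.63, 4.53 and 2.67 CPM (log2 fold change 1.27 ± 0.56 (SE), adjusted p = 0.0731). Rps19bp1 was at 1.85, 2.28 and 2.81 CPM and 2.85, 2.13 and 2.96 CPM (log2 fold change 0.21 ± 0.50 (SE), adjusted p = 0.766). Of these 3, the libraries of Rpl22l1 and Rps27l did not overlap, though the adjusted p missed the threshold at their low levels. Rps12-ps3 varied within every group and held 3 counts in remission, against 34 in control, 70 in acute and 36 in chronic libraries. Its counts in remission were 0.0327 of those in acute libraries, scaled for depth, with an exact 95% interval of 0.00658 to 0.0995 that covers counting error only. The fall was called (adjusted p = 0.0127) and was lost without remission replicate 2 (adjusted p = 0.0501).

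In remission 50 of 82 members were higher than in control and 0 were lower, where 6.06% of all genes tested were higher and 3.25% lower. In the chronic phase 65 were higher and 0 lower, where 9.57% of all genes were higher and 5.17% lower. The test at an unadjusted p under 0.05 found 66 members different from control in remission (80.5%, against 21.8% of all genes) and 70 in the chronic phase (85.4%, against 26.8%). The median log2 fold change was 0.83 (1.78-fold) in remission and 1.01 (2.01-fold) in the chronic phase, against 0.01 and -0.01 over all genes. These 2 comparisons and that of the acute phase use the same 3 control libraries. Leaving out control replicate 1, the control library with the lowest summed level, gave 36 members higher in remission and 53 in the chronic phase. The share of all genes called higher was also smaller in that fit, 3.90% in remission and 6.58% in the chronic phase. All 3 remission libraries lay above the control libraries in 62 members, as in 14.4% of genes, and all 3 chronic libraries in 65, as in 16.5%. The reverse was found in 1 member each, Rpl7l1, as in 13.8% of genes for remission and 15.8% for the chronic phase.

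**Figure D3:**
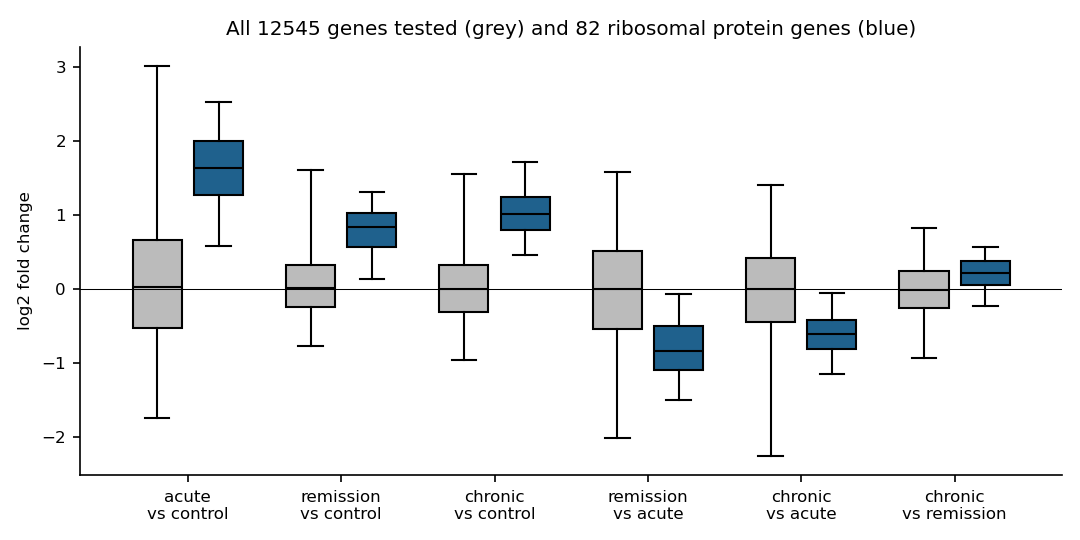
Log2 fold changes of all 12545 genes tested (grey) and of the 82 members tested (blue) in the 6 comparisons, with the median, the middle 50% as a box and whiskers at the 5th and 95th percentiles. The blue boxes lie above 0 in the 3 comparisons against control and below 0 in both comparisons of a later phase with the acute phase.

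Rpl5 had the smallest adjusted p in both later phases. It stood at 128, 101 and 119 CPM in remission (log2 fold change 0.99 ± 0.13 (SE), adjusted p = 2.28e-05) and at 139.6, 124.1 and 152 CPM in the chronic phase (log2 fold change 1.24 ± 0.13 (SE), adjusted p = 9.03e-07). Rplp0 was at 163, 115 and 147 CPM in remission (log2 fold change 1.02 ± 0.15 (SE), adjusted p = 0.000101) and at 182, 150.2 and 222 CPM in the chronic phase (log2 fold change 1.402 ± 0.15 (SE), adjusted p = 1.39e-06). Every library of the later phases lay above control and below acute libraries in both genes. Rpl10a, which forms the L1 stalk, was at 159, 107 and 131 CPM in remission (log2 fold change 1.096 ± 0.15 (SE), adjusted p = 4.72e-05), and Rpl12, at the base of the P stalk, at 43.01, 38.6 and 35.3 CPM (log2 fold change 1.13 ± 0.16 (SE), adjusted p = 7.88e-05). Rpl6 and Rps24 had changes of 0.94 ± 0.13 and 1.06 ± 0.16 in remission (adjusted p = 6.03e-05 and 0.000124). In the chronic phase Rps16 and Rpl23 had changes of 1.55 ± 0.20 and 1.097 ± 0.14 (adjusted p = 1.38e-05 and 1.75e-05).

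All 31 proteins of the 40S subunit were higher than control in the chronic phase, and 25 of them in remission. Of the 45 proteins of the 60S subunit tested, 34 were higher in the chronic phase and 25 in remission. Rpsa was at 115, 74.2 and 91.1 CPM in remission (log2 fold change 1.200 ± 0.21 (SE), adjusted p = 0.0013) and 133, 95.97 and 174 CPM in the chronic phase (log2 fold change 1.72 ± 0.21 (SE), adjusted p = 3.49e-05). Rps6 was at 53.2, 40.7 and 50.2 CPM in remission (log2 fold change 0.696 ± 0.17 (SE), adjusted p = 0.00978), a call lost without control replicate 2 (adjusted p = 0.0688), and at 64.5, 51.7 and 84.9 CPM in the chronic phase (log2 fold change 1.17 ± 0.17 (SE), adjusted p = 4.49e-05). In both genes every library of the later phases was above control.

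Other members crossed the threshold in 1 later phase only, or less firmly. Rps19 stood at 28.01 ± 2.41 CPM in remission (adjusted p = 0.0562) and 34.5 ± 11.5 CPM in the chronic phase (adjusted p = 0.00362). Rpl11 stood at 70.7, 48.6 and 46.7 CPM in remission (adjusted p = 0.248), overlapping control, and at 73.3, 63.2 and 71.9 CPM in the chronic phase (adjusted p = 0.00703). The chronic call of Rpl11 was lost without control replicate 1 (adjusted p = 0.0582). Rplp1 and Rplp2 had changes of 0.69 ± 0.25 and 0.72 ± 0.23 in remission (adjusted p = 0.108 and 0.0525). In the chronic phase they had 0.89 ± 0.25 and 0.79 ± 0.23 (adjusted p = 0.0236 and 0.0212). Rplp1 was not called there without chronic replicate 3, control replicate 1 or control replicate 2 (adjusted p from 0.0785 to 0.122), nor Rplp2 without chronic replicate 2 or control replicate 1 (0.0871 and 0.139). Rps27a had changes of 0.83 ± 0.20 in remission and 0.79 ± 0.20 in the chronic phase, and both calls were lost without control replicate 1 (adjusted p = 0.0717 and 0.0722). Rpl10 was called in both (adjusted p = 0.048 and 0.0181), but 9 of the 12 fits that each left out 1 library did not call it in remission, nor did 3 of 12 in the chronic phase. No member outside the canonical lists was called in either phase.

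The summed level of the members in both later phases lay below every acute library and above every control library. In remission 58 of 82 were lower than in acute libraries and 0 higher, where 19.4% of all genes were lower and 17.6% higher. The median log2 fold change was -0.84. In the chronic phase 45 were lower and 0 higher, where 15.5% of all genes were lower and 13.3% higher, with a median of -0.62. That count was 27 without chronic replicate 2, which had the lowest summed level of its group, and 26 with library totals alone. In these fits 2801 of 13112 and 3584 of 12545 genes were called in either direction. With all libraries and TMM scaling 3610 of 12545 were. All remission libraries lay below all acute libraries in 69 members, as in 24.9% of genes, and all chronic libraries in 57, as in 21.4%. The acute libraries are shared by these 2 comparisons.

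Rplp0 fell by 1.505 on the log2 scale from acute to remission (adjusted p = 1.94e-07) and by 1.12 from acute to chronic (adjusted p = 8.3e-06). Rpl8, a protein close to the peptidyl transferase centre, stood at 151, 136 and 126 CPM in acute and 58.9, 42.5 and 57.9 CPM in remission libraries (log2 fold change -1.38 ± 0.17 (SE), adjusted p = 3.13e-06). Rps18, in the head of the 40S subunit, was at 63.3, 66.9 and 60.5 CPM and then 31.6, 25.6 and 23.9 CPM (log2 fold change -1.23 ± 0.17 (SE), adjusted p = 1.01e-05). Acute and remission libraries were well apart in both genes, and neither gene was called against control in remission (adjusted p = 0.118 and 0.0567). Rpl5 and Rpl9 had changes of -0.93 ± 0.12 and -0.96 ± 0.13 in remission against acute. In the chronic phase against acute, Rpl9, Rpl6, Rps27a, Rps4x and Rpl4 had changes of -0.86 ± 0.13, -0.801 ± 0.13, -1.15 ± 0.19, -0.92 ± 0.16 and -0.75 ± 0.14, each called (adjusted p from 5.42e-05 to 0.000279).

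Some members stood at nearly the same level in remission as in acute libraries. Rps29 was at 35.02, 42.9 and 47.4 CPM in acute and 51.5, 29.5 and 40.6 CPM in remission libraries (log2 fold change -0.04 ± 0.20 (SE), adjusted p = 0.891), with a control mean of 17.8 ± 4.401 CPM. Rps21 was at 19.2, 22.4 and 21.05 CPM and 17.9, 16.3 and 23.9 CPM (log2 fold change -0.12 ± 0.25 (SE), adjusted p = 0.741). Both were higher than control in remission (adjusted p = 0.000513 and 0.00214), and their remission and acute libraries overlapped. Rpl26 had a change of 0.19 ± 0.24 and Rpl10a of -0.27 ± 0.15 between the same groups, and neither was called. These 4 members were picked after their values were seen. A p above the threshold does not show that such levels were equal.

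**Figure D4:**
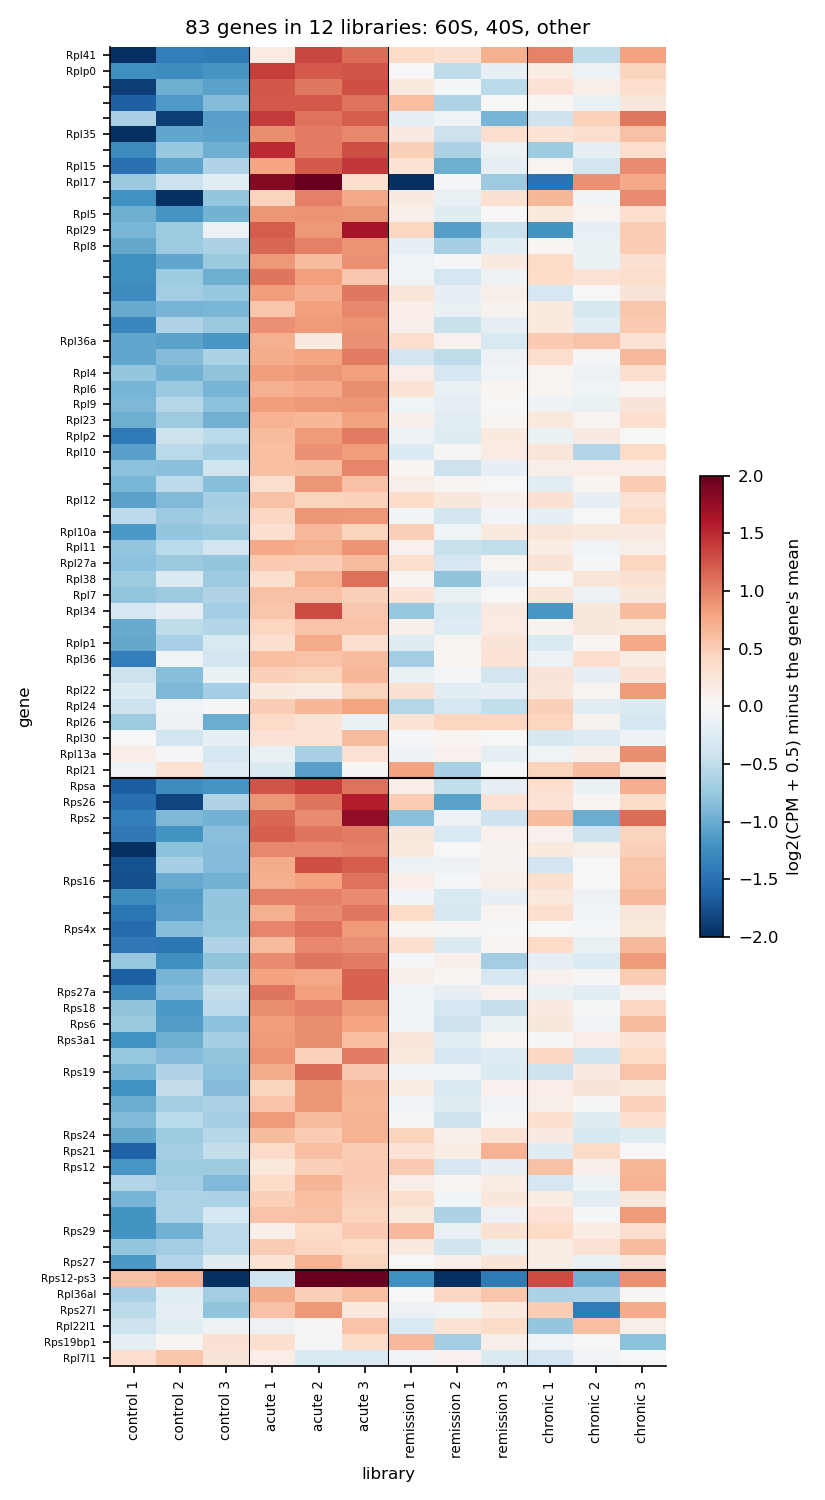
Level of each of the 83 members (rows: 60S, 40S and others, separated by black lines) in each of the 12 libraries (columns), as log2(CPM + 0.5) minus the mean of the gene, with colours capped at 2 in either direction and genes described in the text labelled. Control columns are blue and acute columns red for nearly every canonical protein, and remission and chronic columns lie between. Rpl7l1 at the bottom is highest in the control columns, with similar means in the 3 disease phases (17.8 to 18.5 CPM).

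The group means of 72 of the 83 members followed the same arrangement, with remission and chronic between control and acute. The acute mean was the highest of the 4 in 77 members and the control mean the lowest in 75. In 48 members all 3 disease phases were called higher than control, and 30 of these were also called lower in both later phases than in the acute phase. Against control, 8 members were called higher in the acute phase alone: Rpl15, Rpl17, Rpl29, Rpl30, Rpl34, Rpl36, Rpl36al and Rpl38. Missing a call in the later phases does not show that these members differed from the rest. How often all genes show these orders of means and joint calls was not counted. The comparisons also share their control and acute libraries. A difference among the 4 groups was called in 76 of 82 members, as in 44.0% of all genes.

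Between the chronic phase and remission edgeR's quasi-likelihood test called 0 members higher and 0 lower, where 0.941% of all genes were higher and 0.263% lower. At an unadjusted p under 0.05 it found 14 members (17.1%), a share close to the 15.7% of all genes, and DESeq2 and limma-voom also called 0. The chronic mean was above the remission mean in 65 of the 83 members, with a median log2 fold change of 0.22 against -0.01 over all genes. All chronic libraries lay above all remission libraries in 8 members, as in 9.42% of genes, and below them in 1, as in 8.42%. Without chronic replicate 2, 4 members were called higher, where 1.63% of all genes were, and without a filter on low counts 6 were, where 1.69% of all genes were.

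Marker genes of several other cell types rose at the acute phase, beside the members. All 10 resident microglia markers were detected in every group. They summed to only 2325 to 3588 CPM in acute libraries, against 9323 to 10420 CPM in control, and to 7589 to 7824 CPM in remission and 7238 to 7458 CPM in the chronic phase. The acute libraries thus held far less of the mRNA that defines the labelled cell type. The 15 monocyte markers summed to 34.2 to 89.1 CPM in control, with Chil3, Clec4e, Ly6c2 and S100a4 at 0 counts, and to 2362 to 3332 CPM in acute libraries, with none at 0. Neutrophil markers (10 genes) summed to at most 0.647 CPM in control, with 7 of 10 at 0, and to 109.7 to 366 CPM in acute libraries. T and NK cell markers (11 genes) summed to at most 0.175 CPM in control, with 9 of 11 at 0, and to 54.5 to 79.1 CPM. Border macrophage markers (6 genes) summed to 0.711 to 1.05 CPM in control, with Lyve1 and Pf4 at 0, and to 66.1 to 113 CPM in acute libraries, with Lyve1 at 0. The acute sums were 6.30 times the control mean for astrocyte, 20.7 times for erythroid and 1.81 times for endothelial and pericyte markers. For B cell and neuron markers they were lower, at 0.42 and 0.75 times the control mean. The part of these cells in the acute levels of the ribosomal protein genes was not tested. In bulk samples a change in the number of cells of a type and a change in RNA per cell cannot be told apart.

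The sum of the monocyte markers also lay above every control library in both later phases. Of 14 tested, 2 were called higher and 0 lower in remission, where 6.06% of all genes were higher and 3.25% lower. In the chronic phase 3 were called higher and 1 lower, where 9.57% of all genes were higher and 5.17% lower. All 15 markers summed to 138.5 to 149.5 CPM in remission, with none at 0, and to 149.5 to 196 CPM in chronic libraries, with S100a4 at 0. These were 2.67 and 3.17 times the control mean, against 53.8 times at the acute phase, beside 1.78, 2.06 and 3.23 times for the summed ribosomal protein genes. Their part in the levels of the later phases was not tested. Remission replicate 1 stood apart, with oligodendrocyte markers at 717 CPM against 71.7 and 147 in the other remission libraries, astrocyte markers at 118 CPM against 14.5 and 20.7, and neutrophil markers at 39.1 CPM against 2.10 and 1.06. It also had the highest member sum of its group. Without it, 42 members were higher in remission than in control, where 4.80% of all genes were. In the same fit 60 members were lower in remission than in acute libraries, where 4638 of 12965 genes were called in either direction. Oligodendrocyte markers (9 genes, none at 0) summed to 88.6 to 112 CPM in control, and the acute libraries held 458 to 616 CPM and the chronic ones 84.0 to 84.8 CPM. Mitochondrially encoded genes held 1.92 to 2.29% of counts in control and 5.17 to 5.74% in acute libraries, with 2.51 to 3.81% in remission and 3.02 to 4.36% in the chronic phase. The part of these genes in the results was not tested.

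Ribosome components that the symbol rule misses were compared next. Rack1, a scaffold on the head of the 40S subunit, was at 81.2, 77.98 and 93.00 CPM in control and 304, 313 and 329 CPM in acute libraries (log2 fold change 1.91 ± 0.15 (SE), adjusted p = 4.28e-09). Fau, made as a fusion of a ubiquitin-like protein with the 40S protein S30, was at 16.5, 33.6 and 29.6 CPM in control and at 118 to 133 CPM in acute libraries (log2 fold change 2.25 ± 0.23 (SE), adjusted p = 1.09e-06). Both stood without overlap, and both remained above control in remission (changes of 0.84 ± 0.15 and 1.36 ± 0.22) and in the chronic phase (1.27 ± 0.15 and 1.22 ± 0.23), all 4 called.

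Elongation factors work on the assembled ribosome and share the 5′ TOP class in several cases. The list used here also holds the related genes Eef2k, Eef1e1 and Tpt1. Of its 9 genes, 6 were higher and 1 lower at the acute phase, where 23.7% of all genes tested were higher and 20.0% lower. The median log2 fold change of the list was 1.12, and with library totals alone it was 0.56, with 6 higher and 2 lower. Eef1a1, which delivers aminoacyl-tRNA, was at 463, 449.8 and 435 CPM in control and 1548, 1667 and 1684 CPM in acute libraries (log2 fold change 1.86 ± 0.13 (SE), adjusted p = 4.46e-10). Eef2, which drives translocation, was at 294, 291 and 291 CPM and 1298, 1154 and 1163 CPM (log2 fold change 2.04 ± 0.14 (SE), adjusted p = 6.98e-10). Neither overlapped between groups. Eif5a and Tpt1 rose by 1.39 ± 0.16 and 1.12 ± 0.13. In remission 5 of 9 (2 with library totals alone) and in the chronic phase 6 of 9 (5 with library totals alone) were higher than in control. Of all genes, 6.06% (4.03% with library totals alone) were higher in remission and 9.57% (5.61%) in the chronic phase. Eef1a1 rose by 0.98 ± 0.12 and 1.07 ± 0.12 and Eef2 by 0.72 ± 0.14 and 1.09 ± 0.14.

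Initiation factors place the small subunit on the start codon. Of 30 tested, 21 were higher and 1 lower in acute libraries (median 0.53), where 23.7% of all genes were higher and 20.0% lower. With library totals alone 9 of the factors were higher and 4 lower (median -0.03, against -0.53 over all genes). Pabpc1, the cytoplasmic poly(A)-binding protein, stood at 107 ± 5.66 CPM in control and 385 ± 36.3 CPM in acute libraries (log2 fold change 1.85 ± 0.15 (SE), adjusted p = 5.34e-09). The eIF3 subunits Eif3e, Eif3h and Eif3f rose by 2.15 ± 0.18, 2.305 ± 0.22 and 2.24 ± 0.22. In remission 4 of 30 were higher than in control and in the chronic phase 10 of 30, with medians of -0.000948 and 0.25. Of all genes, 6.06% were higher in remission and 9.57% in the chronic phase. Scaled by library totals, the chronic phase had 4 higher and 4 lower (median -0.10) and remission 2 higher and 1 lower (median -0.25). The medians of all genes were then -0.37 in the chronic phase and -0.24 in remission.

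**Figure D5:**
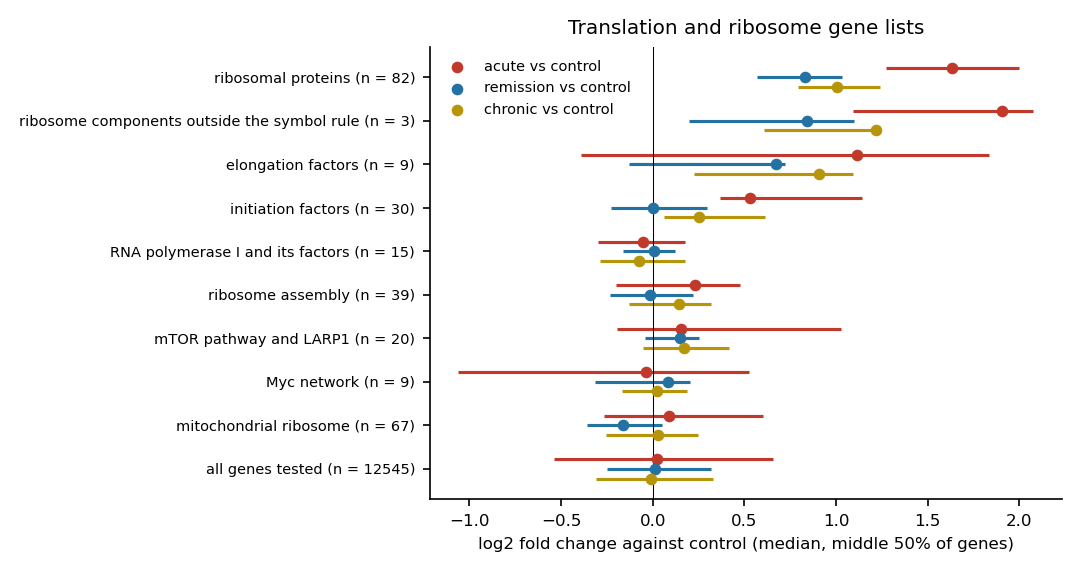
Median log2 fold change against control (points) and the middle 50% of genes (lines) for the ribosomal proteins, for 8 lists of translation and ribosome genes and for all genes tested, at the acute phase (red), in remission (blue) and in the chronic phase (yellow). With TMM scaling, medians are 1.63, 0.83 and 1.01 for the ribosomal proteins. For the lists of RNA polymerase I, ribosome assembly, mTOR, Myc and the mitochondrial ribosome they are between -0.16 and 0.23 in all 3 phases. With library totals the acute medians of these 5 lists were below 0, as was that of all genes (-0.53).

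Genes that make or govern ribosomes had lower medians at the acute phase than the members. Over all genes tested, 23.7% were higher there and 20.0% lower. Of 39 assembly factors tested, 5 were higher and 1 lower at the acute phase (median 0.23). Npm1 and Ncl, abundant nucleolar proteins, rose by 1.201 ± 0.17 and 0.98 ± 0.13, Sdad1 rose by 1.48 ± 0.17, and Rrp1b fell by 0.79 (adjusted p = 0.000631). Of 15 genes of RNA polymerase I, which transcribes the ribosomal RNA precursor, and its factors, 0 were higher and 1, Ttf1, was lower (median -0.05). Of the 67 mitochondrial ribosomal proteins tested, which serve a separate ribosome, 7 were higher and 2 lower (median 0.09). With library totals alone 0 mitochondrial ribosomal proteins were higher and 17 lower (median -0.44). The counts were then 3 and 14 for assembly factors (median -0.32) and 0 and 7 for the polymerase I list (median -0.61). On that scaling 7035 of 12545 genes were called, 22.8% of them higher, and the median of all genes was -0.53.

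The mTOR list of 20 genes had 6 higher and 2 lower at the acute phase (median 0.15). Over all genes tested, 23.7% were higher and 20.0% lower. Larp1, which binds 5′ TOP mRNAs, stood at 84.8, 67.8 and 75.7 CPM in control and 138, 143 and 119.8 CPM in acute libraries (log2 fold change 0.81 ± 0.14 (SE), adjusted p = 0.00011). Rptor, the scaffold of mTOR complex 1, stood at 177, 191 and 166 CPM and 63.3, 71.1 and 75.3 CPM (log2 fold change -1.35 ± 0.13 (SE), adjusted p = 6.76e-08). Groups did not overlap in either gene. Sesn1, a sestrin that restrains mTOR complex 1, fell by 2.07, and Rragc, a Rag GTPase that brings mTOR complex 1 to lysosomes, rose by 1.02 ± 0.15. On library totals alone, 1 gene of this list was higher and 8 lower (median -0.401, against -0.53 over all genes). Of 12545 genes, 7035 were then called, 22.8% of them higher. In the Myc network of 9 genes tested, 2 were higher and 4 lower. Myc, a transcription factor known to drive ribosome production, stood at 13.8, 14.4 and 20.3 CPM in control and 7.004, 6.66 and 9.49 CPM in acute libraries (log2 fold change -1.06 ± 0.24 (SE), adjusted p = 0.00137). Its partner Max rose by 1.26 ± 0.20, its antagonist Mxd1 rose by 1.94 ± 0.21 and Mxd4 fell by 1.12. Among both lists, 2 mTOR genes were higher and 1 lower in remission, 2 were higher in the chronic phase, and 0 of the Myc network were called in either. Of all genes, 6.06% were higher and 3.25% lower in remission, and 9.57% and 5.17% in the chronic phase. On library totals alone, the chronic phase had 3 mTOR genes and 1 of the Myc network lower and 0 higher. The median of all genes was then -0.37, and 3223 of 12545 genes were called, 21.8% of them higher.

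Length and gene copies bear on how the members were counted. Ribosomal protein mRNAs are short, and other coding genes with under 1000 bases of annotated exon also had a raised median at the acute phase, 0.93, against 0.31 from 1000 to 2000 bases, 0.11 from 2000 to 4000 and 0.02 from 4000 to 8000. In the same classes the members (12, 34, 30 and 6 tested) had medians of 1.42, 1.95, 1.41 and 1.44. Exon length here joins the exons of all annotated transcripts of a gene, so it can exceed the length of any 1 mRNA. Rps15a, for example, counted 6270 bases. A member with a short mRNA can thus stand in a class of longer genes. The part of length in the members' change was not tested. Of the 83 members 58 have an annotated pseudogene of the same symbol stem, and reads shared by near-identical copies cannot be told apart in these counts. The 268 pseudogenes together held 2.38 to 3.69% as many counts as the members per library, with over 10% of the member's own counts in 14 members. They were found by -ps in their symbol, so any copy under another name is not among them. The 24 tested members without such a pseudogene had a median log2 fold change of 1.65 at the acute phase, 0.87 in remission and 0.95 in the chronic phase. This set holds Rps12-ps3, itself a copy of Rps12, and need not be free of shared reads.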

How the data were processed

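RNA from sorted spinal cord microglia of 12 mice was analysed, 3 per group, with groups taken from the labelled disease phase. Per the submitters' processing notes, reads were handled with HISAT2, SAMtools 1.3.1, Picard 2.6.4 and HTSeq 0.6.1 on GRCm38, and HTSeq settings are not given in the sources used here. The authors deposited whole-number counts of reads per gene for 48526 Ensembl IDs, of which 48144 were found in GENCODE M21. The 12 single files equalled their columns of the merged table.

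The edgeR 4.0.16 package (R 4.3.3) kept genes by its default filter, applied TMM factors and fitted all 4 groups together with a robust quasi-likelihood model. Each pair of groups was tested with Benjamini-Hochberg adjustment over 12545 genes. The reads have no molecular identifiers. P-values weigh a difference between groups of 3 mice against a spread between mice. That spread was estimated over all 4 groups and in part shared across genes. The members, the gene lists and the tests were chosen with earlier results of these data known.

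Members given per library were up to 6 per direction and comparison with the smallest adjusted p under 0.05 and a mean of at least 10 CPM, those outside the canonical lists, and 11 proteins of known roles. Up to 4 genes of each other list were named by p. Some genes that met these rules are not reported here. Those named beside them were chosen after their values were seen. Alternatives were DESeq2 1.42.0, limma-voom (limma 3.58.1), other scalings, other filters, a fit of only the 2 groups compared, the number in the title as a covariate, and leaving out each library.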

Additional observations from a re-analysis of the deposited data

How the results depend on the processing

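No called member described here, and no median of the members against control or acute, changed direction under the alternatives. Other lists did: with library totals alone, the acute medians were below 0 for initiation factors (-0.03), assembly factors (-0.32), mTOR genes (-0.401) and the mitochondrial ribosome (-0.44). The median of all genes was -0.53 on that scaling, below each of these medians. Since scaling shifts all genes by nearly the same amount, that order is no test of the scaling. With library totals alone, the members' median log2 fold change was 1.09 in acute, 0.58 in remission and 0.64 in chronic against control, and -0.53 in remission and -0.43 in chronic against acute. That scaling also called 2 members lower in acute against control, 1 lower in remission and 1 lower in chronic against control. Against acute it called 1 higher in remission and 1 higher in the chronic phase, with 26 lower in the chronic phase. In chronic against acute, 1 member was higher with limma-voom, without a filter on low counts and with only the 2 groups compared. Chronic against control had 1 lower with totals free of the top 6 features and mitochondrial genes, with limma-voom and with a minimum mean of 5 CPM. Remission against control had 1 lower without a filter, and chronic against remission 6 higher. The cause of these shifts was not tested.

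Leaving out each library in turn gave 70 to 76 members higher and 0 to 1 lower in acute against control, 36 to 54 higher in remission and 53 to 67 higher and 0 to 1 lower in chronic against control. Against acute it gave 0 to 1 higher and 48 to 60 lower in remission, and 0 to 1 higher and 27 to 52 lower in the chronic phase. It gave 0 to 4 higher in chronic against remission. In these fits the share of all genes called higher against control was 19.8 to 24.3% in acute. In remission the share was 3.90 to 6.56% and in the chronic phase 6.38 to 9.53%. Where a group was left with 2 libraries, the fit assumed that they vary like the other groups. With all 12 libraries kept, the alternatives lost 22 calls of single genes described here and gained 22. At 9732 to 23848 member counts per library, members of a few CPM rest on few counts. No paired analysis was possible because the replicate numbers are only an order of records.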
